A study of Mus musculus with 2 samples.

Results

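Oxidative phosphorylation is carried out by 4 respiratory complexes and the ATP synthase of the inner mitochondrial membrane, and 93 genes for their subunits and closely named factors were followed here. They are the genes on the arrays whose symbol begins with Ndufa, Ndufb, Ndufc, Ndufs, Ndufv, Uqcr, Cox4 to Cox8 or Atp5, or is Sdha, Sdhb, Sdhc or Sdhd. The rule used names and no measured value, but it was chosen with earlier results of these data known. It took 93 of the 20882 genes with a probe, on 124 probes, and 24 of the genes had more than 1 probe. By role, 36 encode subunits of complex I (NADH dehydrogenase), 8 assembly factors of complex I, 4 complex II (succinate dehydrogenase), 8 complex III (the cytochrome bc1 complex), 19 complex IV (cytochrome c oxidase) and 17 complex V (ATP synthase), and Cox7a2l is a factor of respiratory supercomplexes. The protein-coding genes Ndufb1, Ndufb4b and Ndufb4c fit the rule but had no probe here.

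The study set a normal diet (ND) against a high-fat diet (HFD), each given for 4 weeks to male wild-type C57BL/6J mice, an inbred strain, for which the labels give no age. RNA was pooled from liver and from adipose tissue within each diet, with 10 livers and 10 adipose samples named in the labels. The labels leave unsaid whether that number holds per diet and which fat depot was taken. Every tissue was hybridised on 1 array with 2 channels, the ND pool in green (Cy3) and the HFD pool in red (Cy5), without a second array or a swap of the dyes. No spread between animals can therefore be had, dye effects of single probes and the diet cannot be told apart, and a gene was called only by size, at a ratio of at least 2-fold. Each ratio below is the log2 of the HFD pool over the ND pool on the same array, and each level is the normalized log2 intensity of 1 channel.

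Complexes I to IV pass electrons from NADH and succinate to oxygen. Complexes I, III and IV pump protons, and complex V uses the proton gradient to make ATP. Most of their subunits are made in every cell type that holds mitochondria. Complex IV is the exception: several of its nuclear-encoded subunits exist as pairs of genes, one widely expressed and one bound to a tissue. Cox6a2, Cox7a1 and Cox8b are the forms of heart and skeletal muscle, with Cox7a1 and Cox8b also found in brown fat. Cox6b2, Cox7b2 and Cox8c are forms of the testis, Cox4i2 is a form of the lung, and Ndufa4l2 is a relative of the complex IV subunit Ndufa4 that is induced by low oxygen. These 8 genes are called tissue isoforms below.

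The results turn on such pairs, so the promoters of muscle forms and widely expressed partners are shown. Each runs from 250 bases before to 50 bases after the start of the gene, in RefSeq's annotation of the mouse build GRCm38.p6, and 76 of the 93 genes have an entry in that table. Capitals mark matches, on either strand, to motifs that were searched by letters: the TATA box (TATAAA), the E-box bound by muscle regulators (CAGCTG), the ETS site of GABPA (CCGGAAG), the YY1 motif (AAGATGGCG), the half-site of the estrogen-related receptors (AAGGTCA), an NRF1 motif (GCGCA, any base, GCGC) and a motif like that of MEF2 (CTA, 4 bases of any kind, TAG).
Cox8b, chr7:140900397-140900696, minus strand: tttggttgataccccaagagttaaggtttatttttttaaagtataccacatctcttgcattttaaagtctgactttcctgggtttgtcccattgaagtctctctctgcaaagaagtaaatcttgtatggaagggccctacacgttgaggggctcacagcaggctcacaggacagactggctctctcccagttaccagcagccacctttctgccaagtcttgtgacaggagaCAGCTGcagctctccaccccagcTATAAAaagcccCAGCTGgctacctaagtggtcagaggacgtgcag
Cox8a, chr19:7217567-7217866, minus strand: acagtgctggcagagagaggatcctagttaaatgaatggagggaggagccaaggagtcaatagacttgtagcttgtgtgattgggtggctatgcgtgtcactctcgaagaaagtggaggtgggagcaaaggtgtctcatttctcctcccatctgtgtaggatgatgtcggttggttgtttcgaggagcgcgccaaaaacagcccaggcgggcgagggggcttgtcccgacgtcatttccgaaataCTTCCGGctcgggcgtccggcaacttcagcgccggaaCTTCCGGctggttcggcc
Cox7a1, chr7:30183921-30184220, plus strand: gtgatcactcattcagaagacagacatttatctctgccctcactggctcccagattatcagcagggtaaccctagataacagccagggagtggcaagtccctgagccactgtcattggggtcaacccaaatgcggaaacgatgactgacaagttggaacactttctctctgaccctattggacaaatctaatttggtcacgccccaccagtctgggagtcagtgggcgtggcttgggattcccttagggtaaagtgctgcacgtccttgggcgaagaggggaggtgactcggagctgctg
Cox7a2, chr9:79759804-79760103, minus strand: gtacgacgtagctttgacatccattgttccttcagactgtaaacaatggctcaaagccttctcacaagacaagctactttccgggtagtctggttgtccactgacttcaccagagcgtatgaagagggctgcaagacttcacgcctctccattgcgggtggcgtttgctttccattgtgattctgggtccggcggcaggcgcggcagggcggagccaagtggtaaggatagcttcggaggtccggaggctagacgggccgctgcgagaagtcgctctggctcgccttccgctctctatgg
Cox6a1, chr5:115348909-115349208, minus strand: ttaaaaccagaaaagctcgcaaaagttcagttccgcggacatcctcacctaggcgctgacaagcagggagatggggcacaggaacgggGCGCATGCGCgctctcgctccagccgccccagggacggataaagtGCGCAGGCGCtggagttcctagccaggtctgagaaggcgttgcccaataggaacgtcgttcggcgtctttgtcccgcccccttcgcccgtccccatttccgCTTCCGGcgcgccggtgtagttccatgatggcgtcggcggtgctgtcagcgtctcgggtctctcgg

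The window of the muscle form Cox8b held a match to the TATA box between 2 E-boxes. That of its partner Cox8a held 2 ETS sites and neither of those motifs. In Cox8b the TATA match and 1 E-box lay after the annotated start of the gene, and the other E-box lay 19 bases before it. Cox6a1, the widely expressed partner of Cox6a2, had 2 NRF1 motifs and 1 ETS site, while none of the 7 motifs matched in the windows of Cox7a1 and of its widely expressed partner Cox7a2. Some genes have more than 1 promoter in the table, and the 72 genes with an entry that are no tissue isoform have 77. Of those 77 promoters, 20 (26%), of 19 genes, held the NRF1 motif and 19 (24.7%) the ETS site. Among all 32851 promoters these shares were 4.6% and 8.86%. The YY1 motif was in 8 of the 77 (10.4%, against 1.4% of all) and the receptor half-site in 8 (10.4%, against 4.72%). The TATA box was in 7 (9.09%, against 13.6%), the E-box in 5 (6.49%, against 16.3%) and the motif like that of MEF2 in 2 (2.6%, against 3.69%). Such matches describe the letters of these windows and were not set against any binding data.

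Both channels measured 91 of the 93 genes in liver and 92 in adipose tissue. Cox7b2 was not well above background on either array, and Cox8c not on the liver array. Each array held 44397 spots with the controls. Among the spots that are no controls none was saturated, and 184 (liver) and 213 (adipose) were marked as outliers and left out. The median spot signal was 93 to 97 in green and 127 to 274 in red, over local backgrounds of 28 and 48 to 52.5. The scanner software's error of a gene's log2 ratio had a median of 0.21 on both arrays. That error covers the reading of spots and not the difference between animals. The labelled tissues carried their markers: in the ND channels, the liver array was the brighter one for 16 of 17 hepatocyte markers, and 12 of 12 white adipocyte markers measured on both arrays were brighter on the adipose array. The adipose pools also differed in marker genes of other organs. Of 11 small intestine markers measured there, 11 were at least 2-fold higher in the HFD pool (median 5.28), 11 of 12 markers of the exocrine pancreas were at least 2-fold lower (median -2.06), and so were 12 of 17 hepatocyte markers (median -4.06) and 10 of 11 testis markers (median -2.67).

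In liver, the genes of oxidative phosphorylation differed little between the diets apart from the muscle forms of complex IV. Of 91 measured genes, 2 were at least 2-fold lower in the HFD pool, Cox6a2 and Cox8b, and 0 were at least 2-fold higher. That is 2.20% lower, where 79 of all 13645 measured genes were lower (0.579%) and 67 higher (0.491%). At 1.5-fold the count was 3 lower, with Cox7a1 added, and 0 higher, against 1.8% and 2.46% of all genes. The 3 genes so named are the 3 muscle forms. In adipose tissue 1 gene was at least 2-fold higher, Cox7a1, and 1 at least 2-fold lower, Cox8c, each 1.09% of 92 genes, where 606 of 14324 genes were higher (4.23%) and 735 lower (5.13%). At 1.5-fold, Cox7b and Ndufab1 joined the higher genes and Cox6b2 and Ndufaf5 the lower ones, 3 each way, against 9.15% and 10.2% of all genes. The adipose shares of these genes were below those of all genes at both sizes with loess normalization, but with median centring 69 of the 92 were at least 2-fold higher, against 4208 of the 14324 genes.

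**Figure D1:**
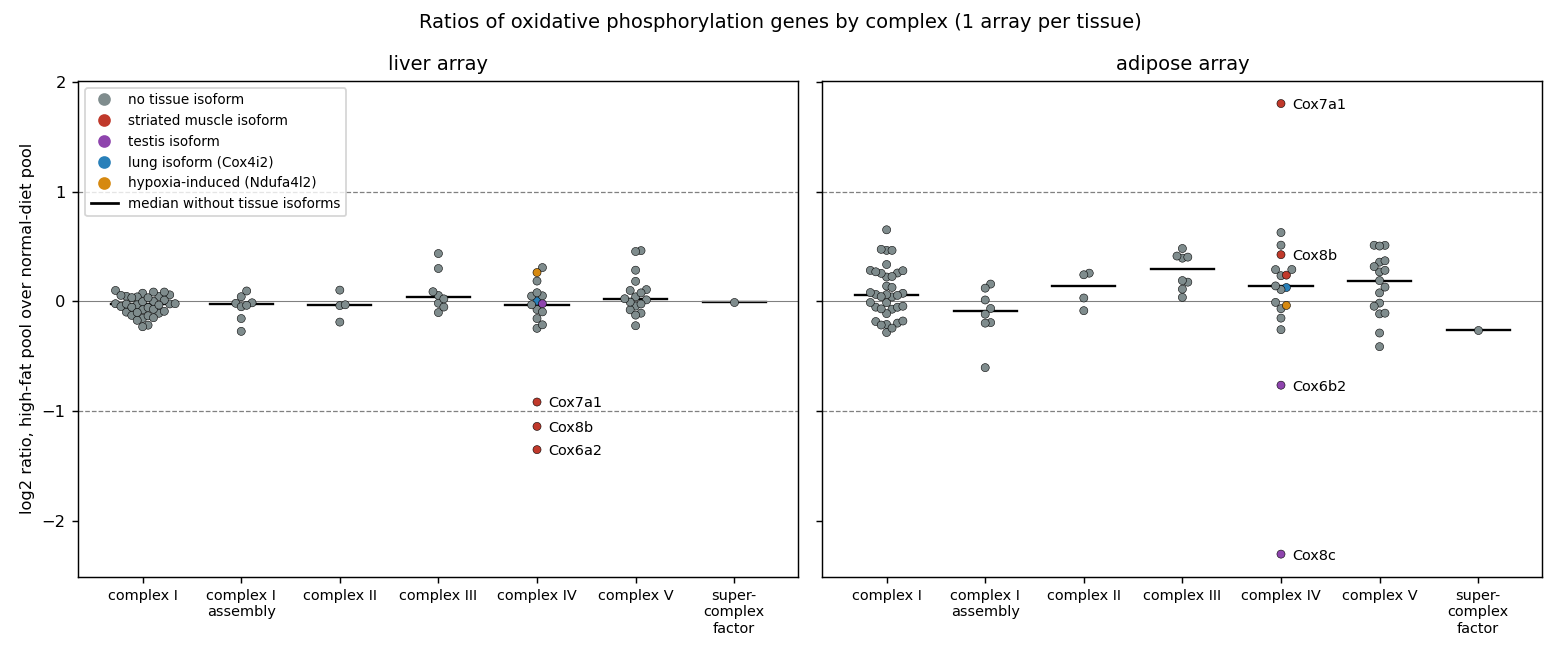
Log2 ratio, HFD pool over ND pool, of each measured gene by complex on the liver array (left, 91 genes) and the adipose array (right, 92 genes). Points are genes, bars the medians without tissue isoforms, and dashed lines mark 2-fold; Cox6a2, Cox8b and Cox7a1 lie at -1.35 to -0.92 in liver, while Cox7a1 lies at 1.80 and Cox8c at -2.30 in adipose tissue.

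The spread of the genes was narrower than that of all genes, but they are also brighter, and equally bright genes were not compared in spread. The interquartile range of the ratios was 0.15 in liver, against 0.24 for all genes, and 0.35 in adipose tissue, against 0.49. The median was -0.02 in liver (all genes 0.01), with 37 genes above 0 and 54 below, and 0.09 in adipose tissue (all genes -0.01), with 57 above and 35 below. These signs depend on how dye was balanced: with median centring in place of a curve along brightness, the median of all genes moved to 0.32 in liver and 0.69 in adipose tissue. The genes followed here, which are bright (median level 14.23 in liver, against 9.19 for all genes), moved to 0.60 and 1.22, with 88 of 91 and 89 of 92 above 0. Calls over all genes then became 445 higher and 28 lower in liver, and 4208 higher and 616 lower in adipose tissue. With loess, ratios of genes that are no tissue isoform ran from -0.27 (Ndufaf2) to 0.46 (Atp5b) in liver and from -0.60 (Ndufaf5) to 0.65 (Ndufab1) in adipose tissue, and none of those 85 genes reached 2-fold on either array with loess normalization. With median centring 5 of the 85 were at least 2-fold higher in liver and 67 in adipose tissue.

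The muscle form of subunit VIa, Cox6a2, had the lowest ratio of all 91 genes in liver. Its level was 12.28 in the ND pool and 10.93 in the HFD pool, a ratio of -1.35 (scanner error 0.24) or 2.55-fold lower. It stayed past 2-fold under 8 of 9 alternative settings and was at -0.88 with median centring. On the adipose array its levels were 6.97 and 7.21, a ratio of 0.24 (error 0.24). The dimmest signals counted as above background there were 6.17 in green and 5.66 in red, so this probe is dim in adipose tissue. The partner Cox6a1, which is made in most tissues, had levels of 16.87 and 17.18 in liver (0.31, error 0.20) and 17.08 and 17.59 in adipose tissue (0.51, error 0.21). Cox6a1 was thus no lower in the liver HFD pool where Cox6a2 was. Genes as bright as Cox6a1 were also high on both arrays, and after subtraction of their running median it stood at -0.25 in liver and 0.24 in adipose tissue.

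Cox8b, the muscle form of subunit VIII, had liver levels of 11.26 (ND) and 10.12 (HFD), a ratio of -1.14 (error 0.23) or 2.20-fold lower. It stayed past 2-fold under 7 of 9 settings, the exceptions being median centring (-0.71) and local backgrounds as deposited (-0.76). In adipose tissue its levels were 10.68 and 11.10, a ratio of 0.43 (error 0.21). The widely expressed form Cox8a lay near 0 on both arrays, at 0.08 and -0.01 (error 0.14 each, 2 probes). Its levels were 15.63 and 15.70 in liver and 16.32 and 16.31 in adipose tissue. The pair therefore separated in liver by more than their scanner errors.

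Cox7a1, the muscle form of subunit VIIa, had the largest contrast between the arrays. In liver its levels were 11.46 (ND) and 10.55 (HFD), a ratio of -0.92 (error 0.22), or 1.89-fold lower, just under the size rule. In adipose tissue they were 10.19 and 12.00, a ratio of 1.80 (error 0.27) or 3.49-fold higher. The spot's median signal there was 518 in green and 9572 in red before background correction. The partner Cox7a2 had ratios of 0.05 in liver (levels 14.70 and 14.75) and 0.11 in adipose tissue (14.88 and 14.99). Cox7a1 was thus lower in the HFD liver pool and higher in the HFD adipose pool, and the difference between the tissues was not tested, since each is 1 array. Under 9 alternative settings the adipose ratio of Cox7a1 ran from 1.78 to 2.79 and the liver ratio from -0.96 to -0.47, never past 2-fold in liver.

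**Figure D2:**
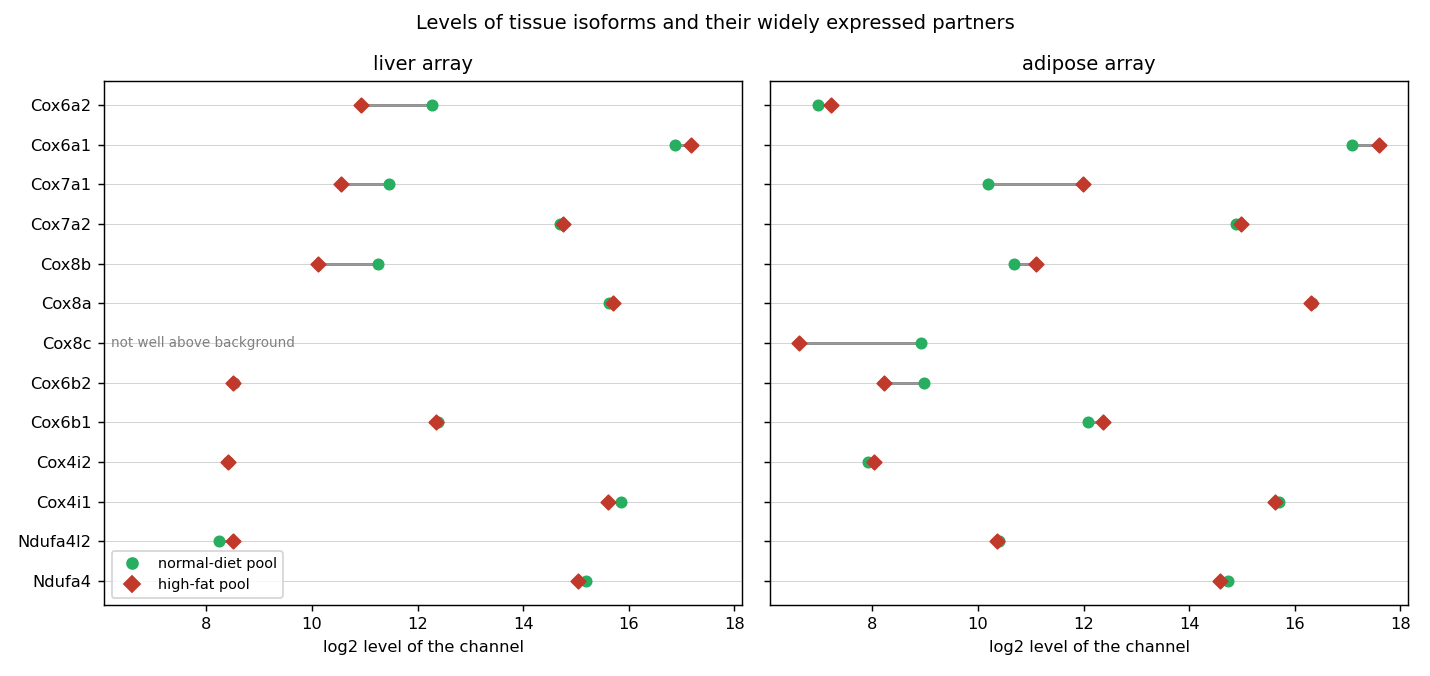
Normalized log2 level of the tissue isoforms other than Cox7b2, and of their widely expressed partners, in the ND pool (green circles) and the HFD pool (red diamonds). The liver array is on the left and the adipose array on the right. Lines join the 2 channels of 1 probe or gene and a longer line is a larger ratio; Cox6a2, Cox7a1 and Cox8b have the longest lines in liver, and Cox7a1 and Cox8c in adipose tissue.

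The lower liver values of the muscle forms went together with those of skeletal muscle genes outside oxidative phosphorylation. Of 30 such markers, 28 were measured in both liver channels, 28 were below 0 and 15 were at least 2-fold lower. Their median was -1.04, from -1.60 (Myh4, a fast myosin heavy chain) to -0.22 (Tnnc1, slow troponin C), and their summed linear level was 79661 in the ND pool and 32004 in the HFD pool. With median centring 27 of the 28 were below 0, 6 of them at least 2-fold, with a median of -0.68. With local backgrounds as deposited all 28 were below 0 and again 6 at least 2-fold lower, and the median was -0.35. Myh7, the slow myosin heavy chain, stood at -1.53, Actn3 of fast fibres at -1.48, myoglobin (Mb) at -1.02 and the creatine kinase Ckm at -0.77. Ratios of 8 of the 28 fell within the range of the 3 muscle forms. Of 6 measured heart markers, Myl2 (-1.24) and Myl3 (-1.08), which slow skeletal fibres also make, were at least 2-fold lower. The other 4, Myh6 (-0.07), Nppa (0.04), Myl4 (-0.20) and Tnnt2 (-0.24), were under 2-fold, and Myl7 and Tnni3 were not well above background. The summed level of the heart markers was 3696 in the ND pool and 2027 in the HFD pool. Whether muscle tissue in the pools has a part in the values of Cox6a2, Cox7a1 and Cox8b was not tested. In pooled tissue, fewer cells of a type and less RNA per cell cannot be told apart.

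In adipose tissue the muscle forms lay on the other side of 0 from most skeletal muscle markers. With loess normalization, 19 of 20 skeletal markers measured there were below 0 and 6 at least 2-fold lower, against 5.13% of all genes. Their median was -0.59, from -3.29 for Tnnc2 to 0.45 for Myl1. Their summed level was 24473 in the ND pool and 8787 in the HFD pool. The defining markers Myh1, Tnni1, Tnnc1, Mylpf, Ttn, Myoz1 and Ckmt2 were not well above background in either channel. Myh2, Myh7 and Atp2a1 were well above background in 1 channel only. Cox7a1, Cox8b and Cox6a2, at 1.80, 0.43 and 0.24, were all above 0. Of the 8 heart markers, 4 were measured in both adipose channels: Tnnt2 (0.85) and Myl4 (0.81) were above 0, and Tnni3 (-0.10) and Myl2 (-0.28) below. The summed level of the heart markers was 2901 in the ND pool and 4905 in the HFD pool. Cox7a1 and Cox8b also belong to brown fat, whose defining gene Ucp1 was not well above background in either channel of either array. The other brown fat markers had a median of -0.56 over 8 genes, 6 of them below 0, with Elovl3 at -2.51 and Cidea at -0.72, and a summed level of 3204 (ND) and 2232 (HFD). White adipocyte markers had a median of 0.31 over 14 genes, 9 of them above 0, with leptin (Lep) at 1.66 and adipsin (Cfd) at -1.70. After subtraction of the running median of equally bright genes their median was 0.07. Their summed level was 1137674 (ND) and 1014391 (HFD). Cfd, the brightest of the 14 in the ND pool (levels 18.73 and 17.03), weighs heavily in that sum. The part of any of these cell types, or of those whose markers differed between the adipose pools, in the ratio of Cox7a1 was not tested.

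**Figure D3:**
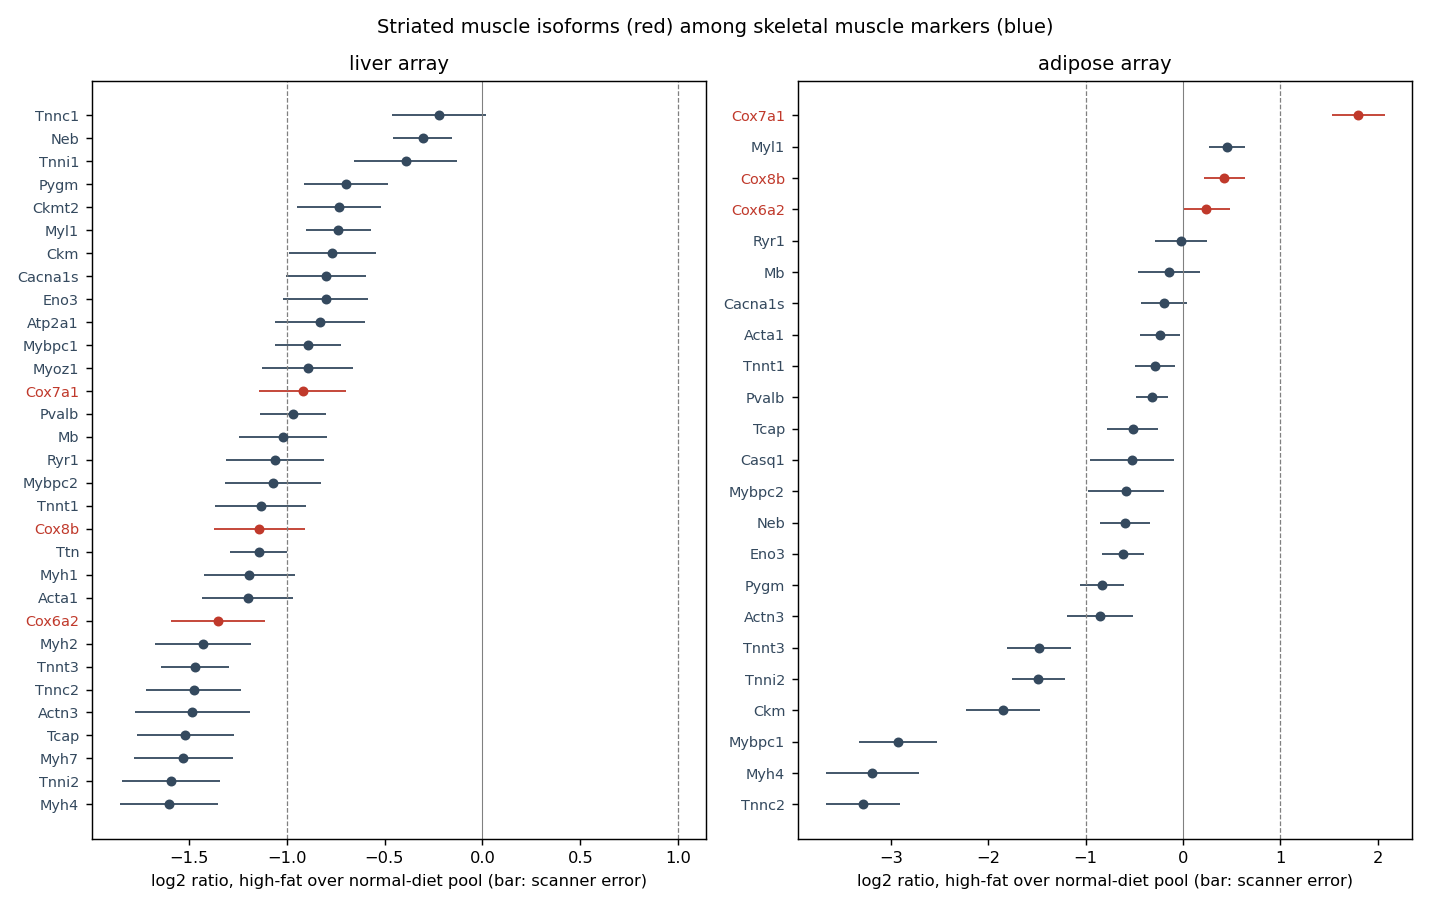
Log2 ratio, HFD pool over ND pool, of the muscle forms (red) and of each measured skeletal muscle marker (blue) in liver (left, 28 markers) and adipose tissue (right, 20 markers), in order of ratio. Horizontal bars are the scanner error and dashed lines mark 2-fold; the muscle forms lie among the markers in liver (-1.35 to -0.92) and above all of them but Myl1 in adipose tissue (0.24 to 1.80).

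Of the testis forms, Cox8c was at least 2-fold lower in the HFD adipose pool, Cox6b2 did not reach that size and Cox7b2 was not measured. Cox8c had adipose levels of 8.92 (ND) and 6.61 (HFD), a ratio of -2.30 (error 0.36) or 4.93-fold lower, with spot signals of 302 and 213 before background correction. Cox6b2 had levels of 8.98 and 8.22, a ratio of -0.76 (error 0.22), which was -0.06 with median centring. In liver Cox6b2 stood at -0.02 (ND level 8.52). Cox8c was the one gene of the 93 past 2-fold lower in adipose tissue, also under each of 9 alternative settings (-3.12 to -1.87). Of 12 testis markers, 11 were measured on the adipose array, 10 were at least 2-fold lower, with the sperm protamine Prm2 at -3.76, and the summed level was 76064 in the ND pool and 7290 in the HFD pool. On the liver array that sum was 2372 and 2152. Whether testis tissue has a part in the values of Cox8c and Cox6b2 was not tested. Cox6b1, the widely expressed partner of Cox6b2, was at 0.29 in adipose tissue (levels 12.08 and 12.37) and -0.03 in liver (12.39 and 12.35).

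The remaining isoforms differed less between the diets. Cox4i1, the common form of subunit IV, had levels of 15.86 (ND) and 15.61 (HFD) in liver, a ratio of -0.25 (error 0.21), and was at -0.07 in adipose tissue. The lung form Cox4i2 stood at 0.00 and 0.13. Ndufa4l2 had liver levels of 8.24 and 8.51, a ratio of 0.26 (error 0.21), and adipose levels of 10.40 and 10.37 (-0.04). Its relative Ndufa4 was at -0.16 and -0.15. None of these 4 genes lay farther than 2 scanner errors from 0 on either array.

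Among subunits without tissue isoforms, complex III lay to one side in adipose tissue with loess normalization. All 8 of its genes were above 0 there, from 0.04 (Uqcr11) to 0.48 (Uqcrh), with a median of 0.29, against 0.09 for all measured genes of oxidative phosphorylation and -0.01 for all genes. After subtraction of the running median of equally bright genes, 7 of the 8 were above 0. With median centring all 8 were at least 2-fold higher, as were 69 of the 92 genes. Uqcrh, the acidic hinge protein, had adipose levels of 15.25 (ND) and 15.73 (HFD) on 2 probes with ratios of 0.46 and 0.50. The Rieske iron-sulfur protein Uqcrfs1, which passes electrons to cytochrome c1, was at 0.40 (levels 14.04 and 14.44), and the core protein Uqcrc2 at 0.39 (13.55 and 13.95). In liver the complex had a median of 0.04, and Uqcrfs1 (0.02) and Uqcrc2 (-0.05) were near 0. With loess none of the 8 reached 1.5-fold on either array.

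Complex V had adipose ratios from -0.41 to 0.51 with a median of 0.19, and its catalytic beta subunit Atp5b was highest. Atp5b had levels of 16.24 (ND) and 16.75 (HFD), and the small membrane subunit Atp5mpl was at 0.50 (14.47 and 14.97). The 3 genes Atp5g1, Atp5g2 and Atp5g3 encode the same mature c subunit of the rotor and lay apart. Atp5g3 was at 0.51 (levels 15.62 and 16.13), Atp5g1 at -0.29 (14.59 and 14.30) and Atp5g2 at -0.41 (15.64 and 15.23; 2 probes at -0.58 and -0.25). In liver they stood at 0.45, 0.04 and 0.01. With median centring all 3 adipose ratios were above 0, with Atp5g2 at 0.80, Atp5g1 at 0.87 and Atp5g3 at 1.74. The stalk subunit Atp5o was at -0.22 in liver and 0.32 in adipose tissue, and the catalytic partner Atp5a1 at 0.28 and 0.27.

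Complex I, the largest group, had medians of -0.03 in liver, where 24 of 36 genes were below 0, and 0.06 in adipose tissue, where 21 were above 0. With median centring all 36 were above 0 on both arrays. Ndufab1, the mitochondrial acyl carrier protein that also sits in complex I, had adipose levels of 9.15 (ND) and 9.80 (HFD), a ratio of 0.65 (error 0.22) or 1.57-fold higher. Ndufs8, which carries iron-sulfur clusters, was at 0.47 (10.43 and 10.90), Ndufb6 at 0.46 on 2 probes (12.66 and 13.13) and Ndufa11 at 0.46 (10.63 and 11.10). The liver ratios of these 4 were -0.15, -0.09, -0.23 and 0.06, each within 2 scanner errors of 0. The lowest adipose ratio was that of Ndufa7 (-0.28, levels 15.40 and 15.12). The electron-entry subunit Ndufv1 was at -0.06 in liver and -0.07 in adipose tissue, and Ndufs1, the largest subunit of the complex, at -0.10 and 0.28.

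The assembly factors of complex I, which help build it and are no part of the finished enzyme, had medians of -0.03 and -0.09 over 8 genes. Ndufaf5 was at -0.60 in adipose tissue (error 0.23), with levels of 7.77 (ND) and 7.16 (HFD) on a dim probe. Ndufaf2 had the lowest liver ratio outside the muscle forms, at -0.27 (levels 11.35 and 11.08). In complex II, which joins the citrate cycle to the chain, Sdha was at -0.04 and -0.08, Sdhb at 0.10 and 0.26, Sdhc at -0.03 and 0.03, and Sdhd at -0.19 and 0.24 (liver, then adipose). None of the 4 lay farther than 2 scanner errors from 0. In complex IV without isoforms the medians were -0.03 and 0.14 over 11 genes. Cox7b had adipose levels of 14.42 and 15.05 (0.63, error 0.21), Cox5a was at 0.29 and Cox6c at -0.26, and in liver they stood at 0.19, -0.07 and 0.05. The supercomplex factor Cox7a2l was at -0.00 in liver and -0.26 in adipose tissue (error 0.12, 3 probes from -0.35 to -0.07).

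By the scanner error alone, 7 of 91 genes in liver and 18 of 92 in adipose tissue lay farther than 2 errors from 0. Over all 13645 genes in liver, 746 lay that far above 0 and 560 that far below. In adipose tissue these counts were 2177 and 2206 of 14324 genes. Of the 91 genes in liver, the 3 lower ones were the muscle forms. The 4 higher ones were Atp5b (0.46), Atp5g3 (0.45), Uqcrh (0.44) and Uqcrq (0.30). The same 4 were higher in adipose tissue, at 0.51, 0.51, 0.48 and 0.41. These are among the brightest probes of the array. All genes with a liver level of 15 to 16 had a median of 0.10 (185 genes). The median was 0.35 for those of 16 to 17 (102 genes) and 0.65 for those of 17 to 18 (23 genes). Bright genes thus stayed above 0 in liver after normalization, and dye and diet cannot be told apart as sources of this. Genes as bright as Atp5b had a liver median of 0.29, and the difference to it was 0.17, within its scanner error. For Atp5g3, Uqcrh and Uqcrq the medians were 0.21, 0.08 and 0.18, and the differences 0.24, 0.36 and 0.12. The liver value of Uqcrh alone stayed farther than 2 scanner errors (0.15) from such a median. Several of these genes have processed pseudogenes, and binding of their transcripts to the probes was not tested.

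**Figure D4:**
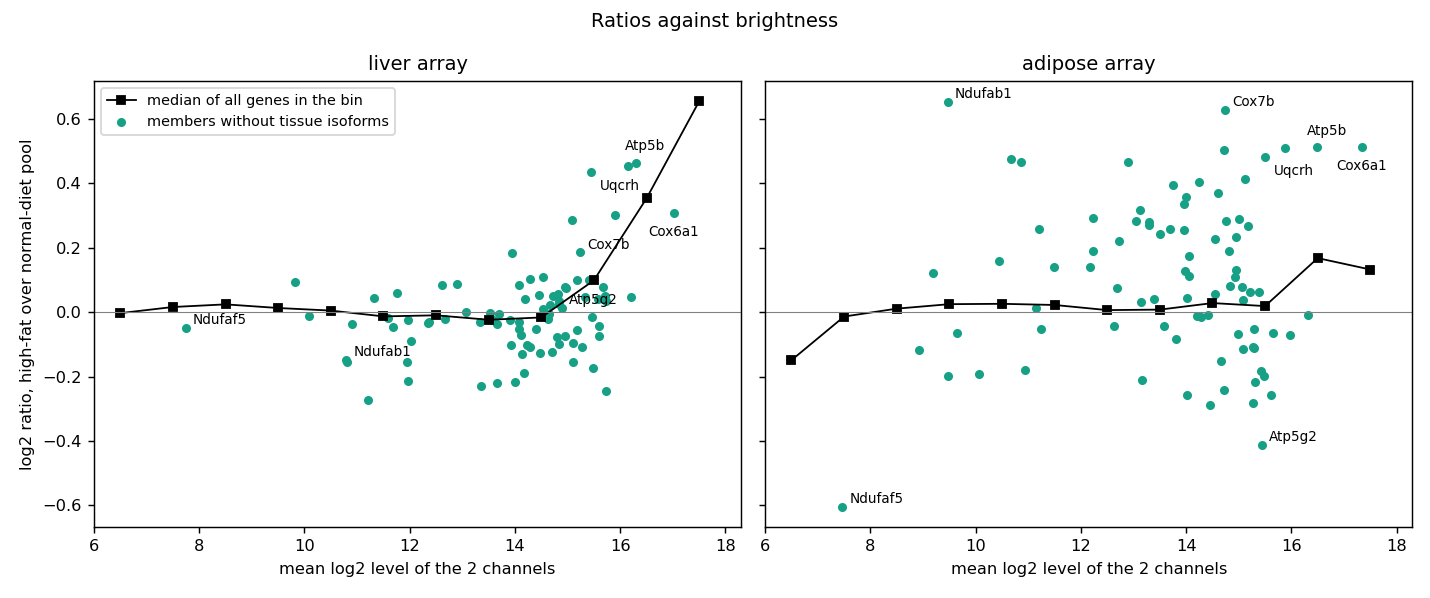
Log2 ratio, HFD pool over ND pool, against the mean log2 level of the 2 channels for the 85 genes without tissue isoforms (points), with the median of all genes in bins 1 log2 unit wide (squares and line), in liver (left) and adipose tissue (right). In liver the line climbs from 0.10 at 15 to 16 to 0.65 at 17 to 18 and the points are higher there too, with the 1 gene at 17 to 18, Cox6a1, at 0.31, while in adipose tissue it reaches at most 0.17 and Ndufab1, Cox7b and Ndufaf5 lie far from it.

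The ratios of a gene on the 2 arrays were weakly related. Over the 85 genes without tissue isoforms, Pearson's r was 0.26 and Spearman's rho 0.13, and over all 12694 genes 0.09 and 0.13. The points share the probe, its dye and its brightness, and genes are not independent replicates. Of the 85, 22 were above 0 on both arrays, 19 below 0 on both and 44 on opposite sides. Over all 12694 genes these counts were 3636, 3318 and 5740.

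On the normal diet, 66 of the 91 genes measured on both arrays (72.5%) were brighter on the liver array than on the adipose array, against 52.3% of all genes. The median difference, liver minus adipose level of the same gene, was 0.31, against 0.05 for all genes. Tissue and array cannot be told apart here, and the arrays were given the same distribution of brightness. All 8 assembly factors of complex I were brighter in liver (median 0.60), with Ndufaf4 at 11.30 against 8.98, a difference of 2.33. Among them Ndufaf5 was brighter by only 0.005, on a dim probe (7.77 on both arrays). Of complex III, 7 of 8 genes were brighter in liver (median 0.52), with Uqcrc2 at 14.42 against 13.55. In complex I Ndufab1 differed by 1.72 and Ndufs8 by 1.64. On the high-fat diet 57 of the 91 were brighter on the liver array, with a median of 0.23. For all genes this was 6779 of 12694, with a median of 0.07.

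Genes brighter in adipose tissue were fewer. Ndufa4l2 had ND levels of 8.24 in liver and 10.40 in adipose tissue, a difference of -2.16, and its HFD difference was -1.86. Atp5g2, Cox8a and Ndufs5 followed at -0.76, -0.70 and -0.69. The muscle forms were all brighter in liver on the normal diet, by 5.31 for Cox6a2, 1.27 for Cox7a1 and 0.58 for Cox8b, as were 17 of the 19 skeletal muscle markers measured on both arrays (median 1.79). On the high-fat diet Cox6a2 was still brighter in liver, by 3.72, while Cox7a1 (-1.45) and Cox8b (-0.99) were brighter in adipose tissue.

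**Figure D5:**
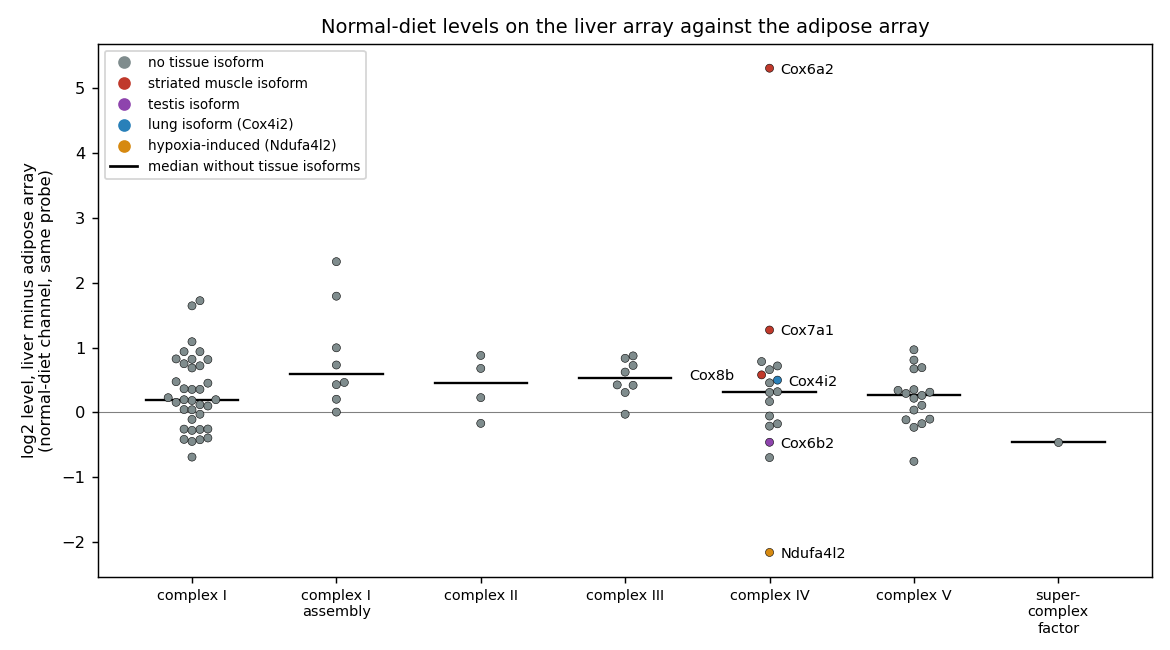
Difference of the normalized log2 level between the ND channels of the liver and the adipose array, liver minus adipose, for each of 91 genes by complex. Points are genes and bars medians without tissue isoforms; 66 of 91 points lie above 0, with Cox6a2 at 5.31 and Ndufa4l2 at -2.16.

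Other genes of the pathway, outside the symbols of the rule, also stayed under 2-fold with loess normalization. None of 31 measured assembly and copper delivery factors, 15 electron carriers and transporters, 11 regulators of mitochondrial mass or 17 citrate cycle genes reached it on either array. In liver the medians were -0.03, 0.02, 0.09 and 0.02. The lowest was Slc25a4, the ADP/ATP carrier of heart and muscle, with levels of 12.60 (ND) and 11.96 (HFD), a ratio of -0.64 (error 0.21). Its widely expressed relative Slc25a5 was at -0.08 in liver. In adipose tissue the medians were -0.01, 0.42, -0.03 and 0.21, and all but that of the regulators were higher there than in liver.

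The adipose carriers stood highest among those lists, with 8 of 15 farther than 2 scanner errors above 0, against 2177 of all 14324 genes. Slc25a5 was at 0.99 (error 0.22), cytochrome c (Cycs) at 0.92 on 2 probes, Coq7 of ubiquinone synthesis at 0.63 and cytochrome c1 (Cyc1), the complex III subunit that lies outside the symbols of the rule, at 0.56. In the citrate cycle Idh3a, a subunit of the NAD-dependent isocitrate dehydrogenase, was at 0.96 in adipose tissue and 0.48 in liver. The nuclear receptor Esrra was at 0.99 in adipose tissue and the mitochondrial transcription factor Tfam at -0.48, while the coactivator Ppargc1a was at 0.13. Among the assembly factors Uqcc1 of complex III was at -0.84 and Acad9 of complex I at 0.59. With median centring 15 of 15 carriers and 17 of 17 citrate cycle genes were above 0 in adipose tissue, 12 and 15 of them by at least 2-fold.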

How the data were processed

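Per the labels, pooled liver or adipose RNA of each diet was reverse transcribed with dye-labelled nucleotides and hybridised on 1 Agilent array of 2 colours per tissue. The deposited files give median spot and local background intensity per channel and the scanner software's log10 ratio (red over green) with its error. Per the file headers, Feature Extraction 11.5.1.1 with protocol GE2_1105_Oct12 was used, with an annotation on mm9. The submitters' processing notes give 8.5.1.1 as the version. From the deposited intensity, background was corrected in limma 3.58.1 (R 4.3.3) by normexp with an offset of 50. Where the software marks a local background as an outlier, it was first set to the channel's median on that array (1602 red and 665 green in liver, 1480 and 406 in adipose tissue). Loess normalization within each array followed, in which control spots had weight 0. For levels of a channel, Aquantile gave the arrays the same distribution of mean intensity.

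Spots of a probe, then probes of a gene, were averaged as log2 values. A probe counted as measured when well above background in both channels and not marked as an outlier. Of 39429 probes, 27502 matched 1 gene through their accession in RefSeq's annotation of GRCm38.p6. The scanner error is the software's error of the deposited log10 ratio, put on the log2 scale and combined over probes, and it covers no biological spread. With 1 array per tissue there is no test, and the number of arrays limits the precision. The normalization steps were tested on simulated data with a dye trend along brightness put in. Such a test cannot show whether a trend with brightness on these arrays comes from dye or from diet. The genes, marker lists and pathway lists were chosen with earlier results of these data known. Named were all isoforms, genes past 2-fold, the 3 highest and lowest of each complex and array, the 6 that differed most between the arrays, the Sdh genes, and the 3 farthest from 0 of each list with some fixed markers; a few others were named after their values were seen. Alternatives covered the log ratio, background, normalization, filter, probe choice, brightness and size rule.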

Additional observations from a re-analysis of the deposited data

Results flagged for a closer look

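Cox7a1 lay on opposite sides of 0 on the 2 arrays, each time by more than 2 scanner errors. Its log2 ratio was -0.92 in liver and 1.80 in adipose tissue. Cox8b did so as well, at -1.14 in liver and 0.43 in adipose tissue (error 0.21), there by a small margin. Its adipose value lay within 2 scanner errors of 0 with the software's log ratio (0.34). The same held after subtraction of the running median of equally bright genes (0.40). With 1 array per tissue, these differences between the tissues were not tested. Groups of 4 or more samples, in which 1 sample could stand apart, do not exist in this design.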

How the results depend on the processing

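The values rest on 1 array per tissue, so no replicate could be left out. No paired analysis was possible because each group is 1 pool. Taking gene names from the files alone was not run, since they hold no column of gene names. No called value changed sign. Median centring had the largest effect: the median of the genes became 0.60 in liver and 1.22 in adipose tissue, those past 2-fold became 5 higher and 0 lower in liver and 69 higher in adipose tissue, and the muscle forms had medians of -0.71 and 1.40. All genes past 2-fold were then 445 higher and 28 lower in liver and 4208 higher in adipose tissue. With the software's log ratio the counts over all genes were 138 higher and 157 lower in liver and 1230 lower in adipose tissue. With local backgrounds as deposited, liver had 1 gene of oxidative phosphorylation lower, a median of -0.76 for the muscle forms, and 20 higher and 35 lower over all genes. Probes above background in at least 1 channel gave 116 genes higher in liver, and no filter gave 103. At 1.5-fold, chosen after seeing the data, all genes were 335 higher and 245 lower in liver and 1310 and 1454 in adipose tissue, with 3 and 3 of oxidative phosphorylation there. Without the 8 tissue isoforms, also chosen then, 0 genes were lower in liver and 0 higher or lower in adipose tissue. Apart from the size rule, the causes were not tested. Of 236 values of named genes, median centring moved 219 by at least their scanner error, the log ratio of the software 38, leaving the background in 0, and each other setting 3 to 16. Dim probes such as Cox8c, Cox6a2 in adipose tissue and Ndufaf5 lie close to background, which limits their ratios.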
